A study of Drosophila melanogaster with 2 samples.

Results

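Chromatin bound by eGFP-tagged Giant was mapped by anti-GFP immunoprecipitation and sequencing (ChIP-seq) in whole Drosophila melanogaster embryos aged 0 to 18 h, in 2 biological replicates of 1 group. The labels name the strain gt-GFP, with an insertion that targets gt. They give no driver, no other allele and no treatment, and no second group was analysed here. The peaks described here lie at promoters with no head-to-head partner within 500 bp. From the authors' pooled list on arms 2L, 2R, 3L, 3R, 4 and X (dm6), a summit was kept when it lay within 500 bp of the transcription start site (TSS) of a protein-coding transcript. It was left out when the TSSs around it included a head-to-head pair of 2 genes, that is, a minus-strand start below a plus-strand start at most 500 bp away. This left 496 of 1825 peaks (27.2%), which were 63.9% of the 776 promoter summits. The other 280 promoter summits were divergent, and 1049 summits lay farther than 500 bp from any protein-coding TSS. The same rule gave 365 of 1163 peaks (31.4%) in the list of replicate 1 alone and 328 of 1100 (29.8%) in that of replicate 2 alone. No read counts were among the files used, so the depth of each library is not known. No untagged or other control peaks were analysed here.

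Giant is a basic leucine zipper repressor, the product of the gap gene gt, and takes part in placing segments from head to tail in the young embryo. A fly promoter that serves a single gene often carries a TATA box or an Initiator with paused polymerase and the GAGA factor, while head-to-head housekeeping genes share a short gap that often holds the motif of DREF and BEAF-32. DREF is an activator of growth and replication genes, and BEAF-32 is an insulator protein that binds the same core letters. The GAGA factor, the product of Trl, opens chromatin at promoters.

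The sequences around 3 of the strongest summits show a feature that the rule did not use, a 7-mer with the core CAGTG. In all 4 such 7-mers were sought together on both strands, with overlaps allowed: ACAGTGG and CAGTGTA and also CACTGAG and CACAGTG. They came from an earlier scan of all these peaks. Each sequence is read from the Release 6 genome, 5′ to 3′ in the direction of transcription, with the summit at base 101. Capitals mark the 7-mers and, in CG13921, also an exact match to the Giant site TTACGTAA.
RluA-1 (chr2L:10474429-10474629, minus strand): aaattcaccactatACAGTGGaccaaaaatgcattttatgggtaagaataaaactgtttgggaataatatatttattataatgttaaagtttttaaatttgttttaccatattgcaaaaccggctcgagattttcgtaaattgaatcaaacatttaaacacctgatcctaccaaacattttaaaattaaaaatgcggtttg
CG13921 (chr3L:1746678-1746878, plus strand): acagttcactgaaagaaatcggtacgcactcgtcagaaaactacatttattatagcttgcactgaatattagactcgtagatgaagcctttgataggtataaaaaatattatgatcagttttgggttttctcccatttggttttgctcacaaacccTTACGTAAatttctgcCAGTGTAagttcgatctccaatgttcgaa
Rtnl1 (chr2L:4997538-4997738, minus strand): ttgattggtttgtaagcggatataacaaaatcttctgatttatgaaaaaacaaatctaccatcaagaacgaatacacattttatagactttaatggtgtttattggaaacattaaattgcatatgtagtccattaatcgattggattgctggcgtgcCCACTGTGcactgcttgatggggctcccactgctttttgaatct

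The RluA-1 peak, at a gene for a putative pseudouridine synthase, had a signal of 470.2 and ranked 11 among the 496. Its 7-mer centre lay 83 bp from the summit. CG13921 had a signal of 423 and Rtnl1, a reticulon gene of the endoplasmic reticulum, one of 406. Their nearest 7-mer centres lay 75 and 60 bp from the summit. All 3 sat beside the summit and not on it. In Rtnl1 a pair of 7-mers overlapped, and both read in the antisense direction.

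Another of the strong summits, at CG18549, carries GAGAG, the core bound by the GAGA factor, again in capitals. It was chosen after its values were seen.
CG18549 (chr3R:12449067-12449267, plus strand): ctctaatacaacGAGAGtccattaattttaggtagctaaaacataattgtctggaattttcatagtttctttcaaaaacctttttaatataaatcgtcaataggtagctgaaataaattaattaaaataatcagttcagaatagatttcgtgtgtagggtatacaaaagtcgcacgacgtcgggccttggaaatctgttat

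The last set shows the DREF and BEAF letters TATCGATA in Nsun5 and eEF1gamma, and the Giant site with at most 1 mismatch in Btk and org-1, in capitals. Windows that would reach a transcript end at the base before the TSS.
Nsun5 (chr3R:19162301-19162470, minus strand): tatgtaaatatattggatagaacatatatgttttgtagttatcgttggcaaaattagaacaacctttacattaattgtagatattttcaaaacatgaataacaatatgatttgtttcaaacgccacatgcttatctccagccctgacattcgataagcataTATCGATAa
eEF1gamma (chr3R:29220016-29220171, plus strand): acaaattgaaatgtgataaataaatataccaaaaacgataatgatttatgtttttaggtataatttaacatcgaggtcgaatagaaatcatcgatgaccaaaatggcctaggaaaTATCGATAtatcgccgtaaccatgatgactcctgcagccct
Btk (chr2L:8277760-8277960, minus strand): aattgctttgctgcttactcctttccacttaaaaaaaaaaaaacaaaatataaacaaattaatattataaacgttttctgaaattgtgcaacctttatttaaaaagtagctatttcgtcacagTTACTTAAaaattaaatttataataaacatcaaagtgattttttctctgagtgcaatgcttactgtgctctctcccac
org-1 (chrX:8455314-8455514, minus strand): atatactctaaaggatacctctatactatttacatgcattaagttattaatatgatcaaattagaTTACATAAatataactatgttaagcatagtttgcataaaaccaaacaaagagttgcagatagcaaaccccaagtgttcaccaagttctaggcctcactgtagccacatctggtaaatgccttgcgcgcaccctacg

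Nsun5 encodes an rRNA methyltransferase and eEF1gamma a subunit of the translation elongation complex. Their motifs lay 65 and 19 bp from summits that were themselves 70 and 56 bp upstream of the TSS, with signals of 203 and 177. Btk, a tyrosine kinase gene (signal 353), and org-1, a T-box factor gene (signal 329), had a Giant site 27 and 31 bp from the summit.

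The 3 strongest peaks were also the 3 strongest in each replicate. On X from 2703729 to 2704030, the peak 41 bp upstream of Ugalt (FBgn0024994), which encodes a nucleotide sugar transporter, had a signal of 562 in replicate 1, 659 in replicate 2 and 1211 in the pooled list. CG14100 (FBgn0036889, 3L, 19590477 to 19590767) had 530.1 and 617, and a pooled signal of 1141. The peak from 2137205 to 2137521 on X, in an intron of ph-p (FBgn0004861), whose product represses genes as part of a Polycomb complex, had 418, 536 and 938. They ranked 1, 2 and 3 in both replicates, in that order. The wing-vein gene px followed with 390.2, 439 and 824. A mitochondrial ribosomal protein gene, mRpL41, had 366, 436 and 803. CG18549 had 280.4, 397 and 674. Among the 20 strongest found in both replicates, pooled signals ran from 368 to 1211 with a median of 487. The rest of these were, in falling order, CG1888, PNPase (a mitochondrial RNA-degrading enzyme), eIF6 (needed to make the large ribosomal subunit), GstE13, RluA-1, Sox14, gish (a casein kinase), Tina-1, CG13921, Fkbp14 (a prolyl isomerase of the secretory pathway), Rtnl1, CG11857, TRAM and Hsp27 (a small heat shock protein).

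Over all 496 peaks the signal ran from 3.27 to 1211, with a median of 102 and quartiles of 77.3 and 159. The median was 112 at divergent promoters, 86.7 away from promoters and 93.7 over all 1825 peaks. Of the 100 strongest pooled peaks, 38 were non-divergent and 25 divergent. The weak end holds peaks that overlap a neighbour: 19 of the 496 had a signal under 20, and 19 of these 19 overlapped another pooled peak. CTCF, an insulator gene with 2 summits, had the lowest value (3.27) beside a summit of 70.2.

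Slightly under 1 in 2 of the peaks was found in both replicates. A thresholded peak of both replicates overlapped 242 (48.8%, 95% Wilson interval 44.4 to 53.2%), against 41.2% of all pooled peaks. A peak of replicate 1 only overlapped 92, one of replicate 2 only 73, and none of either 89. Median pooled signals were 159, 84.2, 89.6 and 70.8 in that order. The conservative list held 420 (84.7%, against 78.1% of all pooled peaks). Neither share was called as different from divergent promoter peaks. There 55.4% lay in both replicates (two-sided Fisher's exact test, adjusted p = 0.257) and 85.0% in the conservative list (exact test, adjusted p = 1). The top signal quartile of the pooled list held 32.1% of non-divergent and 35.4% of divergent promoter peaks (exact test, adjusted p = 0.574). Peaks of 1 list, and genes that share a summit, are not independent samples. These and later p-values treat them as independent and do not measure the spread between replicates.

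The authors' ranked lists reach far below the thresholded ones, and nearly all peaks had some ranked region in each replicate. A ranked region of replicate 1 lay under 494 of the 496 peaks and one of replicate 2 under 493. Across the 491 with both, the Spearman correlation of the signals was 0.598. It has no p, since the peaks share the same 2 libraries and were selected on them. Peaks in replicate 1's list only were led by Lmpt (57.2 in replicate 1 and 81.6 in replicate 2), CG17896 (86.3 and 62.1) and blw, an ATP synthase subunit gene (74.9 and 44.9). Replicate 2's list alone was led by SLC5A11 (35.1 and 129.5) and by 2 glycolytic genes, Eno (enolase, 35.8 and 122) and Ldh (lactate dehydrogenase, 30.6 and 123). In neither list the strongest were Pi3K21B (38.4 and 52.9), usp, the partner of the ecdysone receptor (34.9 and 47.0), and Jwa (39.0 and 52.8). The scaling of each replicate's signal is not given, so the 2 columns were compared by rank: SLC5A11 ranked 1305 in replicate 1 and 187 in replicate 2, and Ldh 1736 and 206. Lmpt ranked 541 and 473, CG17896 249 and 760, and blw 322 and 1491. By rank Lmpt was thus no weaker in replicate 2, although only replicate 1's list held its peak.

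**Figure D1:**
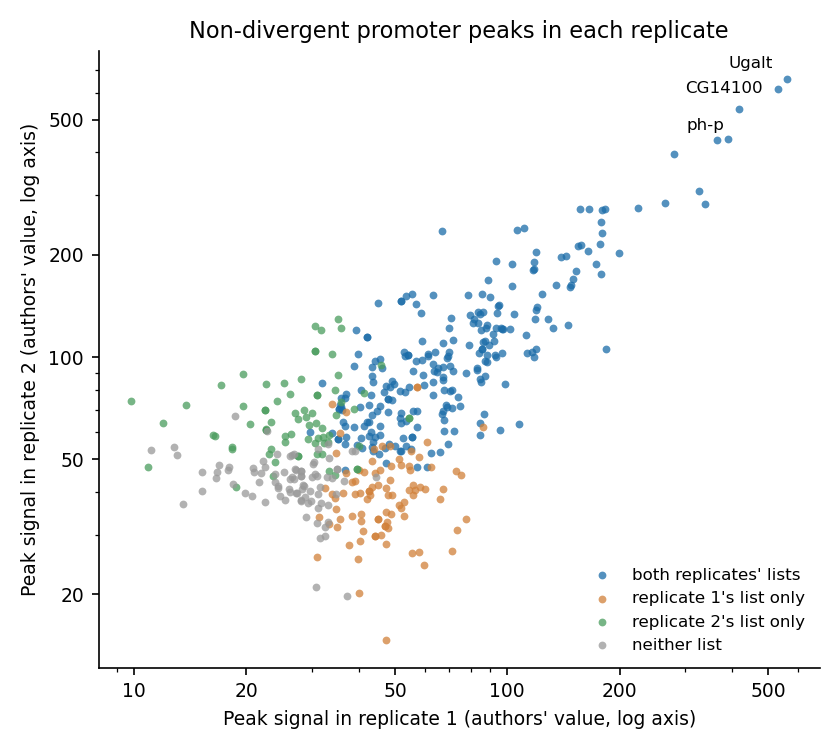
Signal of each peak in the ranked list of replicate 1 (x) and replicate 2 (y), as the authors' unscaled values on log axes, for the 491 peaks with a region in both. Colour gives the thresholded list that held the peak. Ugalt, CG14100 and ph-p stand at the top right with signals of 562, 530.1 and 418 in replicate 1, and peaks of neither list fill the lower left.

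Summits lay upstream of the start. Of the 496, 414 were upstream of the nearest TSS (83.5%, 95% Wilson interval 79.9 to 86.5%), with a median position of −158 bp and quartiles of −241 and −66.5 bp. The share was 87.7% of 365 in replicate 1 and 89.6% of 328 in replicate 2, with medians of −154 and −179.5 bp. The interval from 101 to 200 bp upstream held 155 summits (31.2%), and the first 100 bp upstream held 79. Only 32 lay from 0 to 100 bp downstream of the start and 50 farther downstream. Of the 20 strongest, 19 were upstream, and the exception was GstE13, a glutathione transferase gene, at 75 bp downstream. Weaker peaks were spread more: 92.7% of the 124 strongest and 67.7% of the 124 weakest were upstream. By annotation, 240 summits (48.4%) lay between genes, 146 (29.4%) in an intron of the same gene, 69 (13.9%) in its 5′ UTR, 24 in an intron of another gene, 10 in the gene's own CDS and 7 in a 3′ UTR of another gene.

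Position went with signal and with replication. Summits 101 to 200 bp upstream had a median signal of 123, and 58.1% were in both replicates. Those 201 to 300 bp upstream had 119 and 58.9%. In the first 100 bp upstream the values were 94.3 and 44.3%, and from 0 to 100 bp downstream 73.8 and 25.0%. Farther out on either side, peaks 301 to 500 bp upstream had 100.4 and 37.0%, and those 101 to 500 bp downstream 80.2 and 38%. These zones were set after the data were seen and are descriptive.

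**Figure D2:**
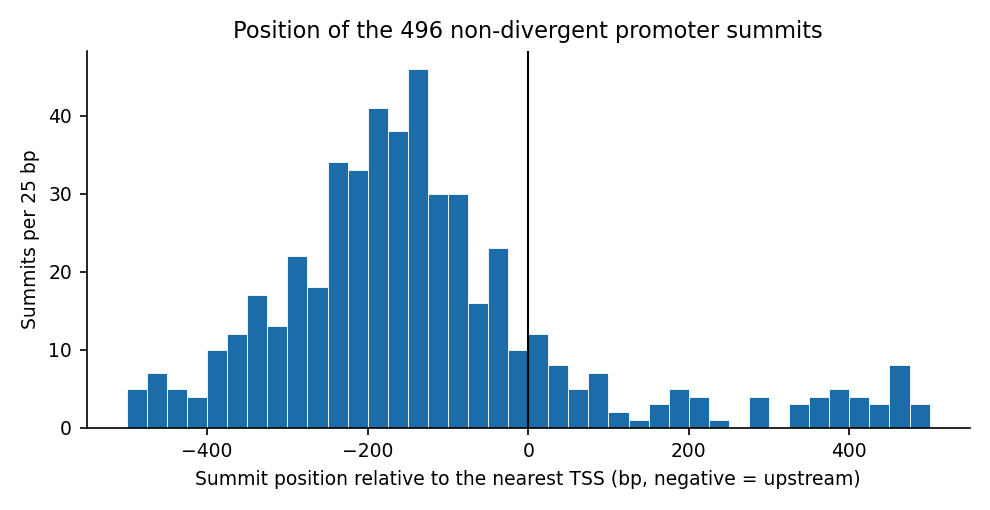
Number of the 496 summits per 25 bp (y) by distance from the nearest protein-coding TSS in the direction of transcription (x, bp). The black line marks the TSS. The count rises to 46 in the bin from 150 to 125 bp upstream and drops to 12 or fewer per bin past the start.

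Genes without a head-to-head partner within 500 bp had a peak less often than genes in such a pair. Of 10130 non-divergent protein-coding genes, 447 (4.41%) had a pooled summit within 500 bp of a TSS, against 597 of 3815 divergent genes (15.6%; two-sided Fisher's exact test, p = 7.56e-99). Over all 13945 genes the share was 7.49%. A single summit in a head-to-head gap counts for both genes, so genes linked head to head were also counted as 1 group. This alternative was added after the data were seen. Then 306 of 1843 groups had a peak at any TSS of any of their genes (16.6%, exact test, p = 7.23e-68), or 3.76 times the non-divergent share. A group holds the TSSs of more than 1 gene, and the part of this in its share was not tested. In the replicates' own lists the difference, non-divergent minus divergent, was −9.06 and −7.77 percentage points.

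By nearest TSS, 459 genes owned the 496 summits, 3.29% of all protein-coding genes. Of these genes 33 had more than 1 summit. Ptpmeg2, a tyrosine phosphatase gene, had 4, with signals of 251, 228, 106 and 64.1. Rtnl1 and brwl had 3 each. A single gene lay within 500 bp of 454 summits, several genes on the same strand at 13 and genes on both strands at 29, among them pairs that are head to head with a gap over 500 bp. Counting noncoding transcripts, 16 (3.23%) did have a head-to-head partner within 500 bp. Genes with such a peak were long, with a median length of 5892 bp and a median of 2 TSSs, against 2145 bp and 1 TSS for all 10130. More TSSs give more sequence in which a summit can count, and the part of this in the counts was not tested. The gap from the outermost end of the gene to its upstream neighbour was about the same (medians of 615 and 632 bp). That neighbour was head to head, at any distance, for 39.7% of the genes with a peak and 30.4% of all 10130. Genes with a peak at an inner start, such as px and eEF1alpha1, can have a close head-to-head neighbour at their outer end (242 and 156 bp), while the 10130 exclude genes with such a pair, so the shares are not over like sets.

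At the limits of the rule, CG9184, ph-p and CG6602 were kept at 486, 489 and 491 bp from the TSS (signals 71.3, 938 and 117), and kek4, ITP and mats fell outside at 503, 503 and 504 bp (87.3, 62.6 and 74.5). Pairs kept at a head-to-head gap just over 500 bp were mth and Ptpmeg (502 bp, signal 67.8), pbl and CG8281 (509 bp, 78.8), and CG33199 and Tom7 (509 bp, 68.6). Left out just under it were Pax and Alp12 (498 bp, 212), IntS6 and Rtel1 (493 bp, 106), and mRpS23 and CenG1A (492 bp, 661).

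Motifs differed between the promoter classes. Within 100 bp of the summit, GAGAG lay at 129 non-divergent peaks (26.0%, interval 22.3 to 30.0%) and at 34 divergent ones (12.1%, interval 8.82 to 16.5%; two-sided Fisher's exact test, adjusted p = 4.96e-05 over 13 motifs). All pooled peaks had 24.6%, near the non-divergent share, so the lower value is that of the divergent peaks. The split was 26.0% against 12.7% in replicate 1's list and 27.4% against 10.5% in replicate 2's. All promoters of the genome, in windows of 201 bp centred 158 bp upstream of the TSS, had it at 24.1% of non-divergent and 16.6% of divergent genes, and the peaks' own promoters in that window at 38.7%. The call was lost within 250 bp of the TSS and in a window of 50 bp around the summit.

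The CAGTG 7-mers lay at 118 non-divergent peaks (23.8%, interval 20.3 to 27.7%), at 40 divergent ones (14.3%, interval 10.7 to 18.9%; two-sided Fisher's exact test, adjusted p = 0.0102) and at 25.0% of all pooled peaks. The non-divergent share was thus near that of all peaks, and the divergent share lay below it. In windows anchored on the TSS, 18.3% of the peaks' promoters held one, against 7.55% of all non-divergent and 6.68% of all divergent promoters. Within 100 bp of the summit, ACAGTGG alone lay at 59 peaks (11.9%), CACAGTG at 53, CACTGAG at 33 and CAGTGTA at 25. In windows anchored on the TSS, the shares of all non-divergent promoters were 2.62%, 2.54%, 1.81% and 2.14% in that order. The windows are not alike, so the peaks' counts and these shares are not set against each other. The scan that found the 7-mers used these peaks, so these shares are descriptive. The difference between the classes lost its call under 7 alternatives, replicate 2's list alone among them (24.7% against 16%, exact test, adjusted p = 0.0927), while replicate 1's list kept it (25.5% against 15%, exact test, adjusted p = 0.0122). Peaks with a 7-mer had a median signal of 114.6 and a median position 185.5 bp upstream, against 97.0 and 149.5 bp without. Of the 124 strongest peaks, 38 (30.6%) had one and of the 124 weakest 17 (13.7%; exact test, adjusted p = 0.0267), a call that neither replicate's own list gave (exact test, adjusted p of 1 and 0.868).

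TATCGATA was rarer than at divergent promoter peaks. It lay at 19 non-divergent peaks (3.83%) and 26 divergent ones (9.29%; two-sided Fisher's exact test, adjusted p = 0.0152), against 2.63% of all pooled peaks. Both shares were thus above that of all peaks, the divergent one by more. Over all promoters, in windows centred 158 bp upstream of the TSS, the shares were 2.24% and 6.29%, a split in the same direction. The non-divergent peaks' own promoters had 2.42% in that window. The call was lost under 9 alternatives, replicate 2's list alone among them (3.66% against 6%, exact test, adjusted p = 0.406). The 19 sat nearer to the start, at a median of 70 bp upstream against 162 bp without the motif. They included the peaks of eIF6 (553), Alg3 (264), Rme-8 (216) and Nsun5 (203), and 4 ribosomal protein genes.

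The Giant site was not called as different between the classes. With at most 1 mismatch, TTACGTAA lay at 64 non-divergent peaks (12.9%, interval 10.2 to 16.1%) and 27 divergent ones (9.64%, two-sided Fisher's exact test, adjusted p = 0.238), against 9.32% of all pooled peaks. In windows centred 158 bp upstream of the TSS, 9.27% of all non-divergent promoters and 8.67% of the non-divergent peaks' own promoters held it. The exact site lay at 2 of 496 and 2 of 280. It lay at 13.7% of the 124 strongest and 11.3% of the 124 weakest peaks (two-sided Fisher's exact test, adjusted p = 0.939). A rearrangement of its letters, ATTCGAAT, was at 15.1% and 10% of the classes (exact test, adjusted p = 0.103). The other, TAACGTTA, was at 7.86% and 12.9% (exact test, adjusted p = 0.0805), and this control was called as lower at non-divergent peaks in each replicate's own list (exact test, adjusted p of 0.0122 and 0.00638). Letters chosen as controls thus also differed between the classes there. Windows at non-divergent summits averaged 37.5% GC and at divergent ones 34.8%. The part of base composition in any of these motif differences was not tested.

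The remaining motifs were not called. Each was counted by its letters anywhere within 100 bp of the summit, so a match need not be a working TATA box or Initiator. TATAAA lay at 35.5% of non-divergent and 43.9% of divergent peaks (two-sided Fisher's exact test, adjusted p = 0.0695), the Initiator core TCAGT at 32.5% and 27.9%, CAGCTG at 10.3% and 15.0% and TGACGTCA, with at most 1 mismatch, at 3.23% and 6.07%. The M1BP motif GGTCACACT, a housekeeping promoter element, was at 8 and 6 peaks. CAGGTAG, the motif of the early activator Zelda, was at 6 and 1, and Ohler motif 6 at 2 and 4.

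**Figure D3:**
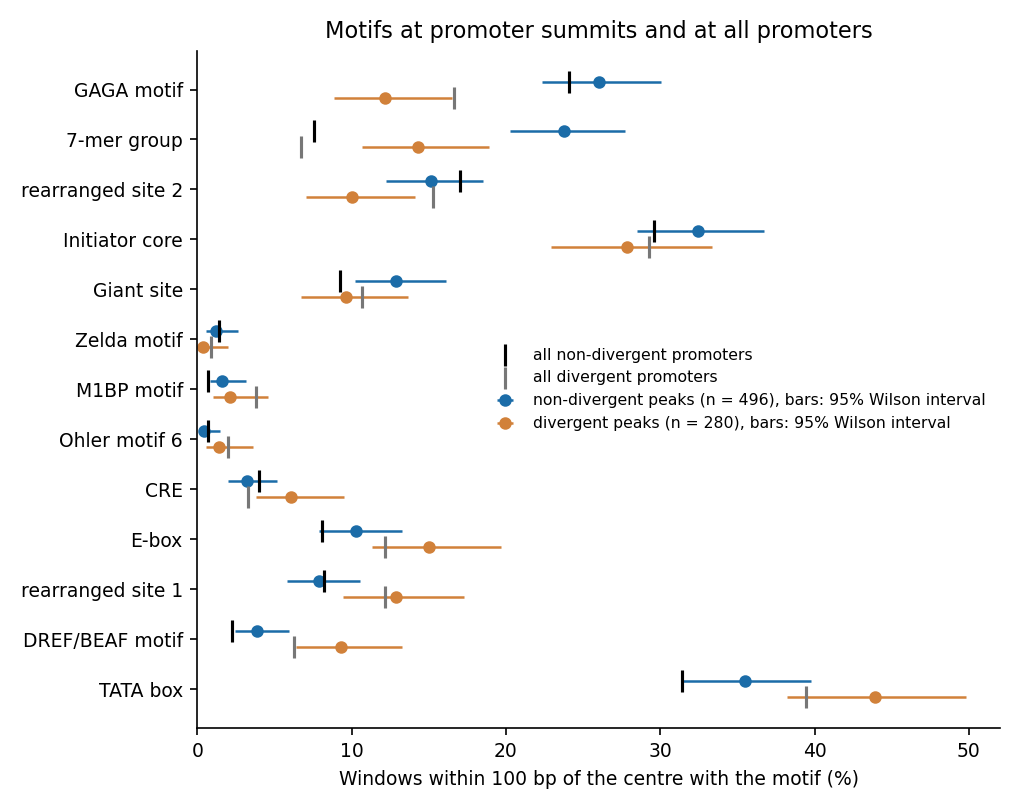
Share of windows with each motif (x, %) at the 496 non-divergent (blue) and 280 divergent (orange) promoter summits, within 100 bp on either side, with 95% Wilson intervals. Black and grey ticks give all non-divergent and all divergent promoters in windows of the same length centred 158 bp upstream of the TSS. The 7-mer group (those with CAGTG) stands at 23.8% against 7.55% of all non-divergent promoters, while the GAGA motif (GAGAG) stands at 26.0% against 24.1%. Points and ticks come from unlike windows. In the window of the ticks, the non-divergent peaks' own promoters, not drawn, had 18.3% and 38.7%.

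Motifs were not spread evenly around the summit. Per 100 peaks and 100 bp, the CAGTG 7-mers had 11.2 matches within 50 bp of the summit, 19.8 from 51 to 100 bp upstream and 37.9 from 51 to 100 bp downstream, towards the gene. For GAGAG the densities were 11.6, 27.0 and 48.0, and for CAGCTG 2.60, 4.84 and 12.1. TATAAA had the other pattern, with 29.1, 29.4 and 16.1. The Giant site was even within 100 bp, with 6.99, 7.66 and 7.26, and sparser farther out. Past 140 bp on either side it had 0 to 0.605 matches per 20 bp and 100 peaks, against 0.806 to 2.22 within 100 bp. A/T content peaked at 66.2% from 50 to 26 bp upstream of the summit and was 52.8% at 175 to 199 bp downstream. It was 62.8% from 100 to 76 bp upstream, where the 7-mers were also denser than at the summit, and the part of base composition in these densities was not tested. Of the 190 matches of the 7-mers, 79 (41.6%, interval 34.8 to 48.7%) read in the sense direction, and of 229 of GAGAG 94 (41.0%, interval 34.9 to 47.5%). The 190 matches lay at 118 peaks and the 229 at 129, with overlapping matches each counted. The intervals treat matches as independent and are likely too narrow, so they do not settle whether the shares differ from 50%. The replicates' own lists gave 43.2% and 39.7% for the 7-mers and 38.2% and 46.7% for GAGAG. The interval reached past 50% in replicate 1 for the 7-mers (35.7 to 51.1%) and in replicate 2 for GAGAG (39.3 to 54.3%). TATAAA (48.4%) and TCAGT (51%) read about equally in both directions.

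**Figure D4:**
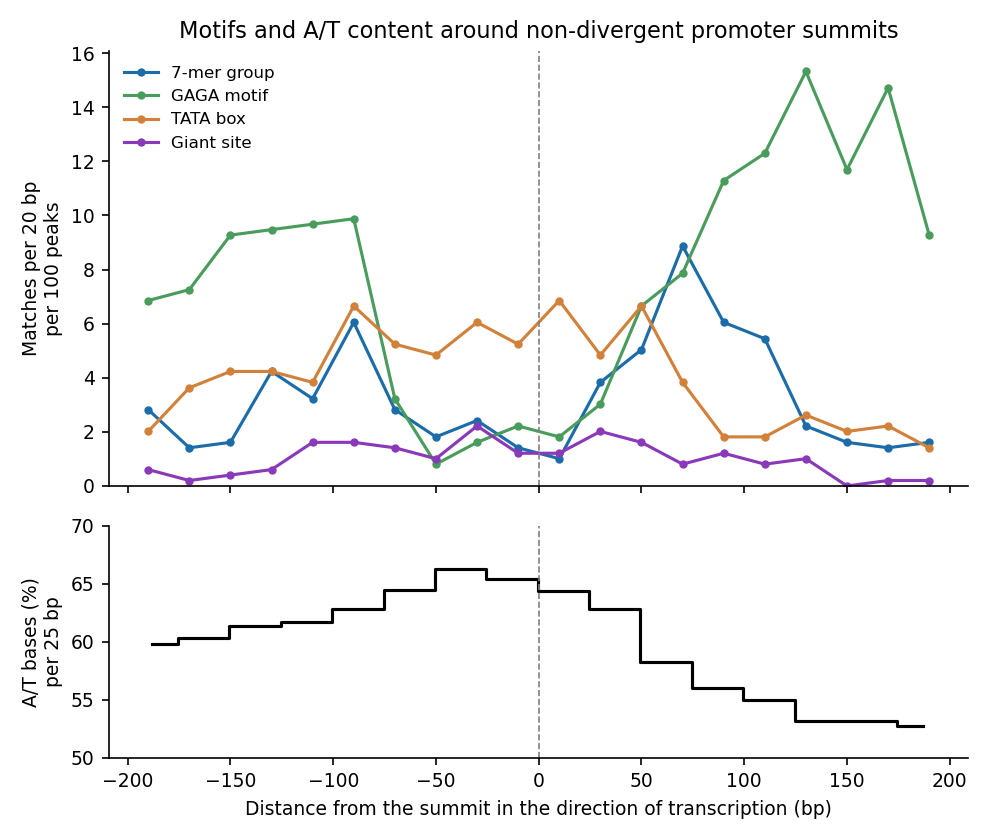
Upper panel: matches per 20 bp and 100 peaks (y) of the 7-mers with CAGTG, of GAGAG (the GAGA motif), of TATAAA (the TATA box) and of the Giant site, by distance from the summit in the direction of transcription (x, bp). Lower panel: percent of A and T bases per 25 bp, on an axis from 50 to 70%. The 7-mers and GAGAG are sparse at the summit and rise on both sides. The Giant site is even within 100 bp of the summit and sparser past 140 bp. A/T content peaks at 66.2% just upstream.

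Motifs also went with the distance of the summit from the start. The 7-mers lay at 31.5% of the 73 summits 301 to 500 bp upstream, at 26.5% of those 101 to 200 bp upstream, at 13.9% in the first 100 bp upstream and at 2 of 32 (6.25%) within 100 bp downstream. From 201 to 300 bp upstream they lay at 28.0%, and from 101 to 500 bp downstream at 22.0% of 50 summits. TATCGATA lay at 1.37% of the summits 301 to 500 bp upstream, 0.935% from 201 to 300 bp, 3.23% from 101 to 200 bp and 10.1% in the first 100 bp upstream. It lay at 12.5% within 100 bp downstream and at 0 of the 50 farther downstream. The motif was thus commonest close to the start on either side. GGTCACACT, the M1BP motif, lay at 5 of the 79 summits in the first 100 bp upstream, at 2 of the 32 in the first 100 bp downstream and at 1 farther away.

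Ribosomal protein genes had more peaks than any other gene list, and their summits lay close to the start. Of 92 cytosolic ribosomal protein genes, 18 (19.6%) had a non-divergent peak, against 3.29% of all protein-coding genes, with 19 summits. RpL23A had signals of 113 in replicate 1, 103 in replicate 2 and 213 pooled, RpS28b 95.6, 61.0 and 159, RpL23 47.9, 75.1 and 126, and RpL22 67.3, 40.9 and 109.6. The first 3 were in both lists and RpL22 in that of replicate 1 only. In all, 5 of the 19 were in both lists (26.3%, against 49.7% of the other peaks), 4 were in neither, and the median signal was 85.8 against 103. The 5 include both summits of RpL23 (126 and 50.9 pooled), which had the same signals of 47.9 in replicate 1 and 75.1 in replicate 2. Of these 19 summits 18 lay within 100 bp of the start, at a median of 33 bp upstream, against 19.5% and 163 bp for the other 477. Of the 19, 4 held TATCGATA, 3 the M1BP motif and 1 a CAGTG 7-mer. This contrast was chosen after the values were seen and carries no test.

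Other translation genes followed in number. Of 56 translation factor genes 6 (10.7%) had a peak, led by eIF6 (553), eEF1gamma (177), eEF1alpha1 (123) and eIF3c (96.1). Of 73 mitochondrial ribosomal protein genes, only mRpL41 (803) and mRpL4 (13.0) had one, and 53 of the 73 are divergent. The tRNA synthetase list had IleRS alone (1 of 31, signal 3.39, a peak that overlaps another), and the respiratory chain ND-ASHI alone (1 of 84, 152). Proteasome (0 of 48) and splicing genes (0 of 24) had no peak of this kind. The share over all protein-coding genes was 3.29%, and the mitochondrial ribosomal (2.74%) and synthetase lists (3.23%) were near it. Many genes of these lists are divergent: 20 of 31 synthetase, 39 of 84 respiratory chain, 24 of 48 proteasome and 16 of 24 splicing genes. Counts of 0 to 2 thus do not set these lists apart.

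Patterning genes, among which the best known targets of Giant are found, had weak non-divergent promoter peaks or none. The 1049 summits farther than 500 bp from any protein-coding TSS were not counted here, so peaks elsewhere near these genes are not covered. None of 7 gap genes, 9 pair-rule genes and 8 Hox genes had one. Segment polarity genes had 1 of 10, nkd, an antagonist of Wingless signalling (73.8), and maternal and head axis genes 2 of 10, bcd (91.6) and cnc (59.5). Dorsoventral genes had 2 of 21, pnr (73.8) and ush (60.8). In lists of 7 to 21 genes, a share of 3.29% is less than 1 gene, so counts of 0 to 2 do not set these lists apart. Of these 5 peaks 4 were in the list of replicate 1 only and pnr in neither. Among genes of differentiated tissue, the heart determinant tin had signals of 58.9, 134 and 201, and the neuronal gene elav 89.9, 150.3 and 243. The muscle gene sls had 51.8, 68.3 and 114, and these 3 were in both lists. They were 1 of 11 mesoderm, 1 of 13 neuronal and 1 of 15 muscle genes. Cuticle genes had 1 of 92, Cpr49Ah (63.9), and chemoreceptors 0 of 179.

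Of the chromatin and cell cycle genes, only ph-p had peaks above the upper quartile of 159. Of 32 Polycomb and trithorax genes only ph-p had any, with 2 summits of 938 and 338. The second had signals of 110.5 in replicate 1 and 240.2 in replicate 2. Among 21 insulator and interband genes, Trl, which encodes the GAGA factor, had 157 at 157 bp downstream of its start, in the 5′ UTR, and CTCF its 2 weak summits. Of 45 replication and cell cycle genes 3 had a peak: Dp, the partner of E2F (119), CycE (116) and RnrS, a ribonucleotide reductase subunit (116). Dp and CycE were in both lists and RnrS in that of replicate 2 only.

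**Figure D5:**
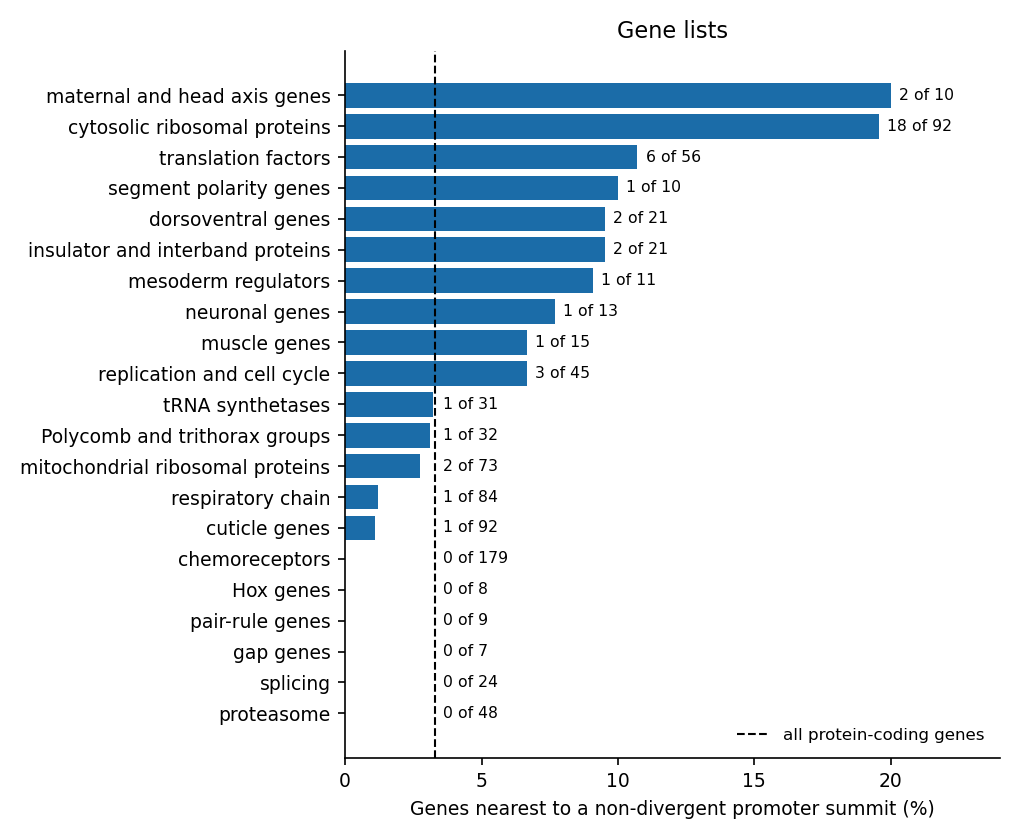
Share of the genes of each list that were nearest to a non-divergent promoter summit (x, %), with the count beside each bar and the share of all protein-coding genes (3.29%) as a dashed line. Cytosolic ribosomal proteins (18 of 92) lead among the lists of more than 10 genes, and 6 lists have no such gene.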

How the data were processed

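ChIP-seq peaks of 2 biological replicates were used as deposited, on dm6 per the labels. The peak signal is the value the authors deposited, with unstated scaling. The authors' lists were thresholded by the irreproducible discovery rate, given as −log10 of the global value; every pooled peak had at least 2. Which aligner and caller were run, and how deeply the libraries were read, is something the sources used here do not give. Per the labels, sonication left fragments of 200 to 800 bp, which limits how finely a summit can be placed.

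TSSs of 13945 protein-coding genes came from Ensembl release 115, and sequence from the Release 6 genome. Signals were compared as deposited. Shares have 95% Wilson intervals, which cover counting error only. Classes were compared by two-sided Fisher's exact tests with Benjamini-Hochberg adjustment over 13 motifs or 3 features, called at 0.05. Class assignment, distances and motif search were checked on simulated data. The 21 gene lists were written as 299 symbols or family name prefixes, and 8 symbols matched no gene.

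Named peaks are the 20 strongest found in both replicates, the 3 strongest of replicate 1 only, of replicate 2 only and of neither, up to 4 per gene list, and those at the limits of the rule; the CTCF, Ptpmeg2, brwl and second RpL23 summits were added after their values were seen. Sequences are from the strongest peaks with each motif off arm 2R, without windows that reach an annotated UTR; a GAGAG sequence replaced the planned M1BP ones, and 1 further sequence is not reported here. The members, lists and motifs were chosen with earlier results of these data known. Alternatives were other distance and gap limits, TSS sets, peak lists, motif windows and overlaps. Python 3.11.15 with numpy 2.4.6, pandas 2.3.3, scipy 1.17.1 and matplotlib 3.10.9 was used.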

Additional observations from a re-analysis of the deposited data

How the results depend on the processing

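The count of 496 peaks was 280 above the median signal of the pooled list, 217 under the stricter IDR and 328 to 365 in the replicates' own lists. The lower share of non-divergent genes with a peak kept its direction and call under every alternative run. All differences below are non-divergent minus divergent, in percentage points. Overlap with both replicates turned to 1.31 above the median signal. Overlap with the conservative list turned to 0.0888 with gaps up to 1000 bp, 2.72 with 1 TSS per gene and 1.35 above the median signal, and the top signal quartile to 1.29 with 1 TSS per gene. None of these was called.

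Of 13 motifs 3 were called, but 1 within 250 bp of the TSS (TATAAA) and 1 with 1 TSS per gene (GAGAG). The number was 0 in a 50-bp window, 7 in a 200-bp window and 2 to 5 in the replicates' lists. TATAAA was called as lower within 250 bp (−12.5) and within 1000 bp of the TSS (−9.32). It was also called with gaps up to 1000 bp (−9.33), without a stronger summit in 300 bp (−9.86) and in a 200-bp window (−12.3). CAGCTG was called as lower with gaps up to 250 bp (−9.97), in replicate 1's list (−7.60) and in a 200-bp window (−17.3). The CAGTG 7-mers (9.50) were no longer called within 250 bp of the TSS (8.08), with gaps up to 250 bp (8.48), with 1 TSS per gene (5.69), under the stricter IDR (11.3), in a 50-bp window (2.37) and among peaks of both replicates (9.21, added after the data were seen), and ranged from 8.70 to 10.5 over the replicates' lists. GAGAG (13.9) lost its call within 250 bp (8.64) and in a 50-bp window (2.75), and was 13.3 to 16.9 in the replicates' lists. TATCGATA (−5.46) lost it within 250 bp (−0.940), with gaps up to 250 bp (−2.41), with 1 TSS per gene (−4.05), in the conservative list (−3.56), above the median signal (−2.54), under the stricter IDR (−3.21), in a 50-bp window (−2.58) and in both replicates (−3.38), with −5.80 to −2.34 in the replicates' lists. The Giant site, not called, turned to −0.298 within 250 bp, −0.203 under the stricter IDR, −0.334 in a 50-bp and −0.161 in a 200-bp window, and was −1.72 to 1.51 in the replicates' lists. The cause was not tested. Most of these alternatives used fewer promoter peaks, while both motif windows and gaps up to 250 bp used the same promoter peaks.

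Between the strongest and weakest peaks, 1 motif was called, but 0 within 1000 bp of the TSS, with 1 TSS per gene, in the conservative list, above the median signal, under the stricter IDR, in either motif window and in both replicates' lists (0 to 0), and 2 with gaps up to 250 or 1000 bp and with noncoding partners. The 7-mer difference (16.9) was 11.0 within 1000 bp, 10.1 with 1 TSS per gene, 11.7 in the conservative list, 7.14 above the median signal, 7.27 under the stricter IDR, 0 and 14.5 in the 50-bp and 200-bp windows and 6.10 to 7.61 in the replicates' lists. The Giant site turned to −2.86 above the median signal and was 5.43 to 7.32 in the replicates' lists.

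The share of upstream summits (83.5%) was 85.6% within 250 bp, 76.8% within 1000 bp, 86.0% with gaps up to 250 bp, 85.8% in the conservative list, 90.7% above the median signal, 90.8% under the stricter IDR, 84.9% without a stronger summit in 300 bp, 88.8% in both replicates and 87.7 to 89.6% in the replicates' lists. The sense share of the 7-mers (41.6%) was 47.6% within 250 bp, 38.9% and 44.1% in the 50-bp and 200-bp windows and 39.7 to 43.2% in the replicates' lists. With every gene within 500 bp counted, 494 genes had a peak and 1 of 24 splicing genes did. No paired analysis was possible because both samples belong to 1 group.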

Other observations

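In windows of 200 bp on either side of the summit, GAGAG lay at 56.5% of non-divergent and 24.3% of divergent promoter peaks (two-sided Fisher's exact test, adjusted p = 2.96e-17). CAGCTG, an E-box, lay at 23.4% and 40.7% (exact test, adjusted p = 2.36e-06), and TATCGATA at 6.65% and 19.3% (exact test, adjusted p = 1.30e-06). These wide windows reach past the TSS of most genes. Of the 496 peaks, 305 (61.5%) held none of the CAGTG 7-mers, TATCGATA, the M1BP motif and the Giant site within 100 bp. CAGTG 7-mers and GAGAG were found together at 43 peaks, and 7-mers with a Giant site at 13. At 56 peaks 7-mers began at 2 or more positions, where overlapping 7-mers, as in Rtnl1, were counted separately.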
